A study of Mus musculus with 6 samples.

Results

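Proteoglycans are core proteins that carry long sulfated sugar chains. The 10 genes described here encode 6 core proteins known for heparan sulfate chains (Hspg2, Agrn, Gpc1, Gpc4, Sdc3 and Sdc4) and 4 known for chondroitin or dermatan sulfate chains (Vcan, Bcan, Ncan and Bgn). They were taken by gene symbol from a count table of 45703 genes, and all 10 were present and passed the filter on low counts that kept 14998 genes. The table came from RNA sequencing of 6 biological replicate cultures (replicates 1 to 6) grown from dorsal root ganglia, where the cell bodies of sensory neurons lie with their glia. The donors were adult C57BL/6 mice of wild type, 4 to 6 weeks old. Dissociated cells stayed 7 days on poly-L-lysine in medium containing 10% serum plus EGF and FGF (each 10 ng/ml), and the cultures formed 1 group with no treatment or control. Each sample pooled RNA from 2 dishes holding all cells that grew, and the labels do not say how many mice went into a culture.

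Heparan sulfate proteoglycans bind growth factors such as FGFs and tether them near their receptors. Those of basement membranes, perlecan and agrin, are laid down with laminin and collagen IV around Schwann cells, while glypicans and syndecans sit in the plasma membrane. The large chondroitin sulfate proteoglycans of the lectican family bind hyaluronan and are known for limiting axon growth in the injured nervous system, and biglycan is a small leucine-rich proteoglycan of collagen-rich connective tissue.

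The libraries held 20070639 to 22968642 counts. All 6 glial lineage markers (such as Sox10 and Erbb3) and all 10 neuron markers (such as Stmn2 and Prph) were above 1 CPM (the usual counts-per-million scale, relative to the library total) in every library, so the defining markers of the labelled tissue were present. Replicate 5 stood apart: it had the lowest summed glial lineage markers (4402 CPM, against 5749 to 6509.7 in the others) and the highest summed markers of fibroblasts (13556 CPM, against 3305 to 7173), mural cells (1049 CPM, against 55.1 to 545), macrophages (156 CPM, against 16.9 to 136) and endothelium (119 CPM, against 8.14 to 38.2). Replicate 1 was lowest for those 4 lists. The labels give no batch. Of the 8 fibroblast markers, Clec3b had at most 3 counts in every library, and the perineurial marker Lypd2 had none. Above 1 CPM in every library were 5 of the 8 fibroblast, 6 of 8 macrophage, 4 of 6 mural and 2 of 6 endothelial markers. The scores of these lists used below therefore include genes with few counts. In replicate 5 the marker Cdh5 alone gave 75.3 of the 119 endothelial CPM.

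Together the 10 genes took 0.687% ± 0.0902 of library counts (SD, n = 6). Levels of different genes are compared below as CPM per kilobase (kb) of combined exon length, since long transcripts give more reads. On that scale the median of the 10 genes was 77.9 CPM per kb, against 7.20 over all genes kept. For the 28 other core proteins and related proteins listed below it was 3.50, so the high median does not describe proteoglycan genes in general. The order of the 10 genes was Bgn, Gpc1, Hspg2, Sdc4, Agrn, Sdc3, Gpc4, Vcan, Bcan and Ncan. The first 6 had means from 57.6 to 367 CPM per kb, Gpc4 and Vcan lay near 8, and the brain lecticans Bcan and Ncan lay below 1.

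**Figure D1:**
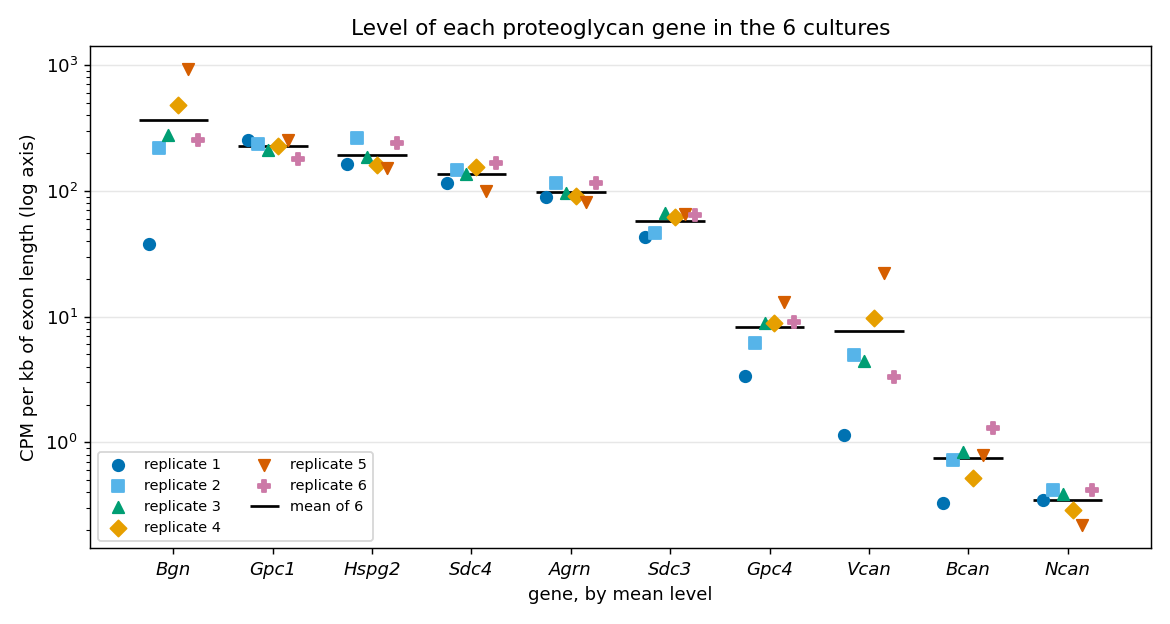
Level of each of the 10 genes (CPM per kb of exon length, log axis), ordered by mean; each symbol is 1 replicate culture and the black line is the mean of 6. Gpc1, Agrn and Sdc3 lie close together across cultures, while Bgn spans 38.0 to 932 and Vcan 1.15 to 22.1 CPM per kb.

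Not all neighbours in this order were separated. Bgn exceeded Gpc1 in 4 of 6 libraries (log2 difference of CPM per kb 0.17 ± 1.58), Gpc1 exceeded Hspg2 in 4 (0.25 ± 0.46) and Gpc4 exceeded Vcan in 4 (0.55 ± 0.90), so these 3 steps were within the spread between cultures (SD, n = 6). Bcan exceeded Ncan in 5 of 6. The other 5 steps held in all 6 libraries, the smallest being Sdc4 over Agrn (0.47 ± 0.17) and Hspg2 over Sdc4 (0.49 ± 0.26) and the largest Sdc3 over Gpc4 (2.88 ± 0.42).

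Perlecan and agrin are the basement membrane members. Hspg2 (perlecan; chromosome 4, 137468751 to 137570630, GRCm38.p6, plus strand) measured 2319, 3749, 2662, 2283, 2168 and 3420.1 CPM in replicates 1 to 6, a mean of 2767 ± 663 (SD, n = 6). Agrn (agrin, which also organizes the neuromuscular synapse; chromosome 4, 156165290 to 156197533, minus strand) measured 1052, 1349, 1137, 1075, 957 and 1353 CPM, a mean of 1154 ± 163. Both genes were highest in replicates 2 and 6 and lowest in replicate 5. Their ratio was steady: per kb, Hspg2 was 1.81, 2.29, 1.93, 1.75, 1.86 and 2.08 times Agrn in replicates 1 to 6. The log2 difference was 0.96 ± 0.14 (two-sided exact sign-flip permutation p = 0.0312, the smallest that 6 libraries allow, adjusted 0.0375 over the 6 pairs of related genes compared).

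Glypicans are tied to the outer membrane by a lipid anchor. Gpc1 (chromosome 1, 92831645 to 92860211, plus strand) measured 1345, 1250.2, 1131, 1212, 1342 and 959 CPM in replicates 1 to 6, a mean of 1207 ± 146 (SD, n = 6). It had the smallest coefficient of variation (CV, the SD as a share of the mean) of the 10 genes, 12.1%, equal to the median of 12.1% over all genes kept. Gpc4 (chromosome X, 52051007 to 52164923, minus strand) measured 19.9, 36.0, 52.1, 51.8, 76.6 and 52.7 CPM, a mean of 48.2 ± 19.0. Gpc4 was lowest in replicate 1 and highest in replicate 5, whereas Gpc1 was about as high in replicate 1 as in replicate 5. Per kb, Gpc1 was 74.3 times Gpc4 in replicate 1 and 19.2 to 38.0 times in the others, a log2 difference of 4.86 ± 0.73 (exact sign-flip permutation p = 0.0312, adjusted 0.0375).

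Syndecans cross the membrane and link matrix to the cytoskeleton. Syndecan-3, typical of neural tissue, is encoded by Sdc3 (chromosome 4, 130792537 to 130826318, plus strand), which measured 240.3, 259, 373, 349, 368 and 359 CPM, a mean of 325 ± 59.0 (SD, n = 6). Sdc4 (chromosome 2, 164424247 to 164443188, minus strand), whose product is a co-receptor at focal adhesions, measured 283, 359.7, 336, 382, 247 and 409 CPM, a mean of 336 ± 61.3. Sdc3 was lower in replicates 1 and 2 than in the other 4, and Sdc4 was lowest in replicates 5 and 1. Per kb, Sdc3 was 0.314 to 0.651 times Sdc4, below it in all 6 libraries (log2 difference -1.24 ± 0.37; exact sign-flip permutation p = 0.0312, adjusted 0.0375). Without division by length the difference was -0.05 (exact sign-flip permutation p = 0.750), so the order of the pair rests on the shorter exon length of Sdc4. Every library listed Sdc4 with a count that was not a whole number, so some of its reads may be shared with another locus and its level is less certain; Bgn had such counts in 5 libraries.

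Among the chondroitin or dermatan sulfate members, biglycan and versican differed most between cultures. Bgn (chromosome X, 73483601 to 73495936, plus strand) measured 94.6, 540.1, 689.7, 1193, 2319 and 635 CPM in replicates 1 to 6, a mean of 912 ± 773 (SD, n = 6). Vcan (versican, the lectican found widely outside the brain; chromosome 13, 89655309 to 89743027, minus strand) measured 18.0, 78.0, 69.7, 153, 347 and 52.0 CPM, a mean of 119.6 ± 120.0, which is 74.2 without replicate 5. Both genes were lowest in replicate 1, second highest in replicate 4 and highest in replicate 5, where Bgn was 24.5 times and Vcan 19.3 times its level in replicate 1. The ratio of Bgn to Vcan per kb lay between 33.2 and 77.1. The CV was 84.8% for Bgn and 100.3% for Vcan, above that of 98.5% of 261 genes with a mean CPM within 2-fold of Bgn and 99.9% of 3309 within 2-fold of Vcan. In bulk RNA, fewer cells of a type cannot be told apart from less RNA per cell.

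The 250 bases before the start of Bgn, the member with the widest range between cultures (highest CPM 24.5 times the lowest), are shown. Beside them are those of Sdc3 and Sdc4, whose ranges were smaller (1.55 and 1.66 times) but not the narrowest (1.40 times for Gpc1). The CVs of Sdc3 and Sdc4, 18.2% and 18.3%, were above those of 82.4% and 81.9% of genes with a mean CPM within 2-fold. Each window is from RefSeq (GRCm38.p6) and is read 5′ to 3′ on the strand of its gene. These 3 windows overlap no exon of the GENCODE annotation. Capitals mark any match, on either strand, to the GC box (GGGCGG), the CCAAT box (CCAAT), the TATA box (TATAAA), the AP-1 motif (TGANTCA), the TEAD motif (CATTCC) or the SOX motif (AACAAT).
Bgn, chrX:73483351-73483600, plus strand: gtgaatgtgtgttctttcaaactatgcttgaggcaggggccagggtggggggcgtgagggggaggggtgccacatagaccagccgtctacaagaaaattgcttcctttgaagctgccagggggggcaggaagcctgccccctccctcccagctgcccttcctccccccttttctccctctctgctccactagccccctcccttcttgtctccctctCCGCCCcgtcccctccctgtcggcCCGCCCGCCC
Sdc3, chr4:130792287-130792536, plus strand: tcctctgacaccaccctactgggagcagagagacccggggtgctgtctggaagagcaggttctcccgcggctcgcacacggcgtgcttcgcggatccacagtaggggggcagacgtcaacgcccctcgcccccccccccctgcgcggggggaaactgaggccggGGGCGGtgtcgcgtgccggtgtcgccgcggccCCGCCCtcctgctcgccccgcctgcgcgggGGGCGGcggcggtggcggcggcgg
Sdc4, chr2:164443189-164443438, minus strand: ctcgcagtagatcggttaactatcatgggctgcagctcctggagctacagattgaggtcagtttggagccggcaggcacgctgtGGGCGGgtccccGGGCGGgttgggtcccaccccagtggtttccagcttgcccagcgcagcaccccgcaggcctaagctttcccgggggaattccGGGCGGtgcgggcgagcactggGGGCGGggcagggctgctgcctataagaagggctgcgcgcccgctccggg

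The Bgn and Sdc3 windows each held 3 matches to GGGCGG and the Sdc4 window 4, and this motif occurs in 32.7% of all 32851 windows of this length in the RefSeq table. None of the 3 held the CCAAT box, TATA box, AP-1, TEAD or SOX motif, which occur, in that order, in 33.8%, 12.4%, 6.75%, 12.6% and 9.42% of windows. The Bgn window was 64.4% G or C, the Sdc3 window 76.4% and the Sdc4 window 68.0%, against a median of 52.4%. The table held windows for 9 of the 10 genes, all but Gpc1. A match describes the letters only.

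The lecticans best known from the brain were scarce. Bcan (brevican; chromosome 3, 87987531 to 88002175, minus strand) measured 2.00, 4.42, 5.12, 3.14, 4.82 and 7.89 CPM, a mean of 4.57 ± 2.00 (SD, n = 6) from 46 to 165 counts. Ncan (neurocan; chromosome 8, 70093085 to 70120863, minus strand) measured 2.53, 3.01, 2.82, 2.09, 1.58 and 3.01 CPM, a mean of 2.50 ± 0.572 from 33 to 66 counts. Bcan was lowest in replicate 1 and highest in replicate 6, and Ncan was lowest in replicate 5, the culture with the most Vcan. Per kb, Vcan exceeded Bcan in all 6 libraries, by 2.72 ± 1.34 on the log2 scale, and Ncan in all 6, by 3.58 ± 1.62 (for both, p = 0.0312 by exact sign-flip permutation and 0.0375 after adjustment). The excess of Vcan over Ncan was 3.26 times in replicate 1 and 101 times in replicate 5. Bcan exceeded Ncan in 5 of 6 libraries, by 0.86 ± 0.58, and did not pass (exact sign-flip permutation p = 0.0625, adjusted 0.0625).

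The makeup of proteoglycan transcript therefore differed between cultures mainly through Bgn. Summed per kb, the 6 heparan sulfate members gave 665, 809, 706, 704, 663 and 773 CPM per kb in replicates 1 to 6, a narrow range. The 4 chondroitin or dermatan sulfate members gave 39.9, 223, 283, 490.3, 955 and 260.2 CPM per kb. Their share of the total was 5.66% in replicate 1, 41.0% in replicate 4 and 59.0% in replicate 5, and 21.6% to 28.6% in the other 3 cultures. Without division by exon length, as a share of summed CPM, it was 2.18%, 20.2% and 34.1% in replicates 1, 4 and 5, so these 4 genes were the larger part in replicate 5 only per kb.

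**Figure D2:**
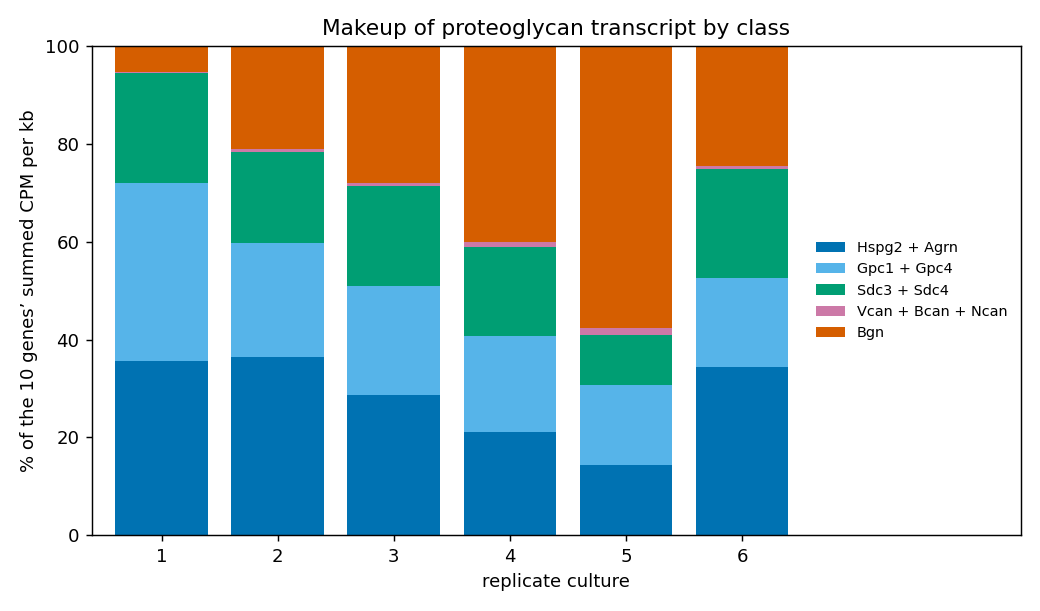
Share of the 10 genes' summed CPM per kb taken by each class, as stacked bars (%), 1 bar per replicate culture. The share of Hspg2 and Agrn runs from 36.5% in replicate 2 to 14.4% in replicate 5, and Bgn fills most of the difference.

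All 10 genes varied between cultures beyond counting noise (chi-square test of 6 counts against scaled library sizes, Benjamini-Hochberg adjusted p under 0.05 over all genes). So did 76.3% of the 14998 genes tested, so the count says little of these genes in particular. The largest of the 10 adjusted p-values of that chi-square test was 0.0172, for Ncan, and it was 0.340 without replicate 5. The median CV of the 10 genes was 23.4%, against 12.1% over all genes kept.

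The next comparison asked which members moved with a fibroblast marker score, the mean of log2(TMM-scaled CPM per kb + 0.1) over 8 marker genes. Among these markers were Col1a1, Col3a1 and Pdgfra, and no proteoglycan. The score was 2.07, 3.17, 3.14, 3.92, 4.76 and 2.81 in replicates 1 to 6. Vcan followed it most closely, with Pearson's r = 0.99 (exact permutation p = 0.00139, the smallest that 720 pairings allow) and Spearman's rho = 1.00 (exact permutation p = 0.00278), and r was 0.99 once replicates 5 and 1, at the ends of the score, were left out. Bgn had r = 0.93 (exact permutation p = 0.0111) and rho = 0.83 (exact permutation p = 0.0583), and r was 0.88 without those libraries. Gpc4 had r = 0.84 (exact permutation p = 0.0514) and rho = 0.60 (exact permutation p = 0.242), and r was 0.07 without them, so its relation rested on replicates 1 and 5. Ncan ran the other way, with r = -0.78 (exact permutation p = 0.0625) and rho = -0.49 (exact permutation p = 0.356). Its r was -0.93 without both of those libraries but -0.42 without replicate 5 alone. For the other 6 genes r lay between -0.48 for Agrn and 0.61 for Sdc3 (exact permutation p from 0.207 to 0.721).

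**Figure D3:**
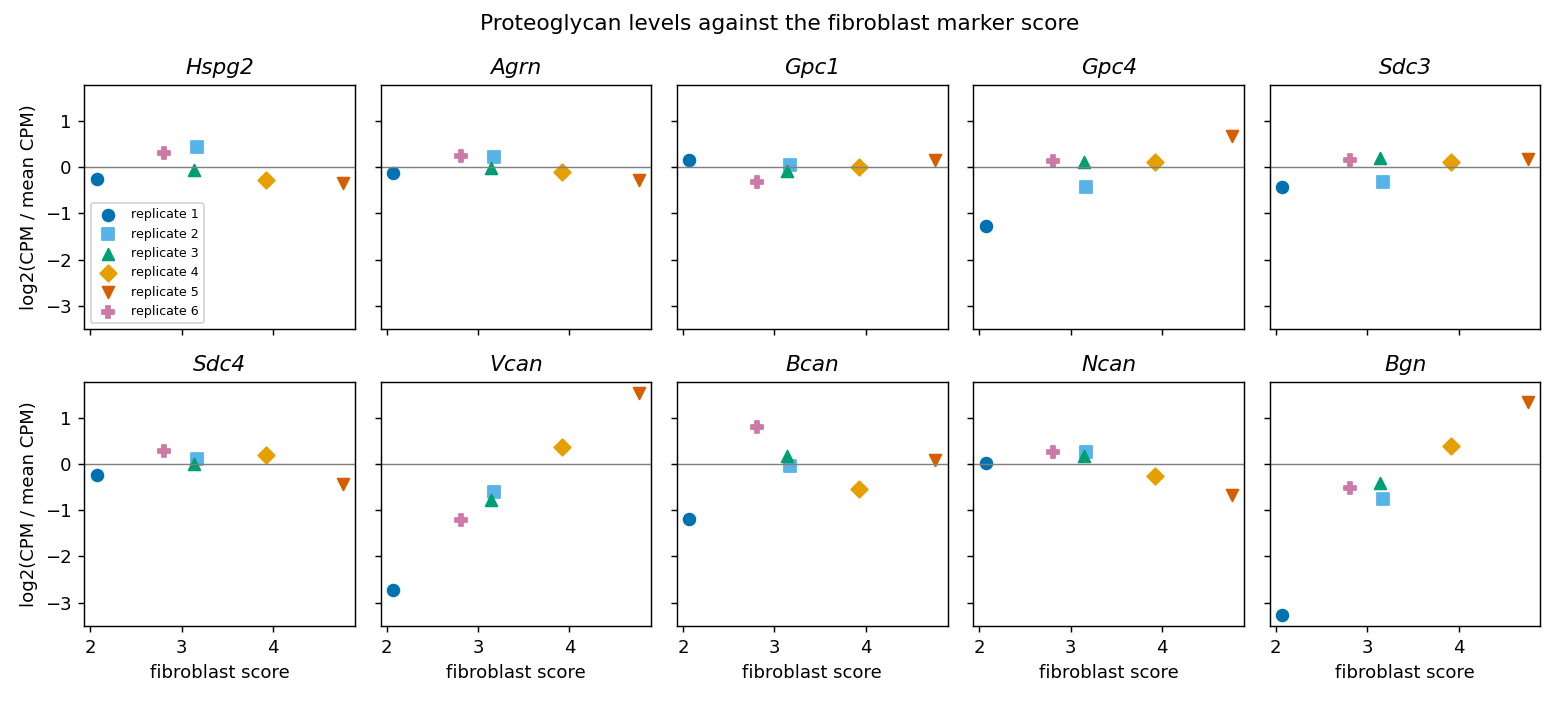
Level of each gene relative to its own mean, log2(CPM / mean CPM), against the fibroblast score (mean log2(TMM-scaled CPM per kb + 0.1) of 8 markers), 1 symbol per replicate culture. Vcan and Bgn climb from replicate 1 at the left to replicate 5 at the right, while Gpc1, Agrn and Hspg2 stay near 0.

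None of these relations passed when p-values were adjusted over all 14992 genes tested. Vcan had an adjusted p of 0.139 for r and 0.226 for rho, and Bgn 0.156 and 0.369 (exact permutation). The exact permutation test called 0 of 14992 genes for this score (background 0%), with 3024 (20.2%) at an unadjusted p under 0.05. Few libraries limit this test, since its smallest p is 0.00139. The edgeR quasi-likelihood test of a slope on the same score, listed as an alternative, called 843 genes (5.62%), 683 higher with the score (4.56%) and 160 lower (1.07%). In that edgeR fit, 2 of the 10 genes were called, both higher: Vcan with a slope of 1.52 (log2 change per unit of score, adjusted p = 0.000478) and Bgn with 1.44 (adjusted p = 0.0193). Gpc4 had a slope of 0.55 and did not pass (edgeR adjusted p = 0.0872). Without replicate 5 the edgeR test called 22 genes (0.146%), among them Vcan (slope 1.64, adjusted p = 0.0242) but not Bgn (slope 1.81), and without replicate 4 it called 423 (2.81%), Vcan among them and Bgn not. The score comes from the same libraries as the counts.

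Scores of other cell types were compared with the same genes. They were not independent of the fibroblast score. Its r was 0.90 with the endothelial score and 0.83 with the macrophage score (exact permutation p = 0.00833 and 0.0319). With the mural and perineurial scores it was 0.75 and 0.72 (exact permutation p = 0.0917 and 0.101). The edgeR slopes were fitted only on the fibroblast, glial lineage and neuron scores. Bgn had r = 0.84 with a macrophage score, 0.88 with a mural score and 0.76 with an endothelial score (exact permutation p = 0.00139, 0.00833 and 0.135). Its rho was 1.00, 0.77 and 0.94 (exact permutation p = 0.00278, 0.103 and 0.0167). Without the 2 libraries farthest from the median of each score, r was 0.63, 0.75 and 0.91. Vcan had r = 0.82, 0.77 and 0.86 with these scores (exact permutation p = 0.0389, 0.0750 and 0.0111), and 0.71, 0.70 and 0.73 without those libraries. For Vcan rho was 0.83, 0.49 and 0.77 (exact permutation p = 0.0583, 0.356 and 0.103). These relations were not particular to Bgn and Vcan. With the macrophage score Gpc4 had r = 0.82 and Sdc3 0.81 (exact permutation p = 0.0125 and 0.0306), but 0.34 and -0.19 without the 2 farthest libraries. With the endothelial score Ncan had r = -0.90 (exact permutation p = 0.0250), but 0.57 without the 2 farthest libraries. Gpc4 had r = 0.72 and rho = 0.94 with it (exact permutation p = 0.154 and 0.0167). The mural score was -0.45, 0.35, 2.08, 1.88, 2.85 and 2.10 in replicates 1 to 6. Gpc4 and Sdc3 each had r = 0.97 with it (exact permutation p = 0.00417 and 0.00556, rho = 0.94 and 0.83). Without replicates 1 and 2 r was 0.98 for Gpc4 and 0.58 for Sdc3, so the r of Sdc3 was lower without those libraries. The perineurial score spanned only 2.06 to 2.25, while the summed CPM of its markers was lowest in replicate 5 (398 CPM, against 506 to 642 in the others) and its most abundant marker, Itgb4, measured 299 CPM there. With that score Sdc3 had r = 0.99 (exact permutation p = 0.0194) but -0.02 without replicates 1 and 2. Gpc4 had r = 0.93, Bgn 0.86 and Vcan 0.73 with it (exact permutation p = 0.00694, 0.00139 and 0.103), and 0.82, 0.97 and 0.98 without those libraries. By rank, rho was 0.83, 1.00 and 0.83 (exact permutation p = 0.0583, 0.00278 and 0.0583). Adjusted over all genes, the exact permutation p for the r of Bgn was 0.0905 (macrophage) and 0.0926 (perineurial), against 0.156 (fibroblast). The exact permutation test called 0 genes for each of these scores (background 0%), and 14.4% of all genes for the macrophage, 15.1% for the mural, 14.4% for the perineurial and 20.1% for the endothelial score had an unadjusted p under 0.05. These 4 scores were added after the data were seen, none of the 10 genes passed an adjusted p of 0.05 over all genes with any of them, and the part of each cell type in the levels was not tested.

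With the glial lineage score, r lay between -0.78 for Vcan and 0.86 for Ncan, and with the neuron score between -0.54 for Gpc1 and 0.30 for Ncan (smallest exact permutation p = 0.0361 and 0.268). Neither score had a gene called over all genes by the exact permutation test or by edgeR (background 0%), and 15.2% and 7.68% of genes had an unadjusted permutation p under 0.05. The glial lineage score itself was 7.40 to 7.56 in 5 libraries and 6.89 in replicate 5, so it mostly set that library against the rest.

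The genes most like each member in their pattern over the 6 libraries were taken from 10264 genes with a mean of at least 10 CPM, by Pearson's r of log2 CPM. The names are a description, since the highest r of so many genes over 6 points is high whatever the genes; from 23 (Gpc1 and Bcan) to 272 (Vcan) genes had r above 0.95. For Vcan they were Fibin, Rab3il1 and the fibrillar collagen Col3a1 (r = 0.997 to 0.998). For Bgn they were Pear1, the protocadherin Pcdh19 and the stromal surface protein Cd248 (r = 0.998 to 0.999), with 249 genes above 0.95. For Gpc4 they were Crybg3, Pde3a and the smooth muscle gene Tagln (r = 0.997 to 0.998), and for Sdc3 Tbx20, the myosin kinase Mylk and Pappa (r = 0.995 to 0.996). Hspg2 was most like Arhgef17, Mif4gd and Matn4 (r = 0.989 to 0.993), and Agrn most like Ap2s1, Hspb6 and Sema3f (r = 0.990 to 0.995). Gpc1 was most like Eif2b1, Clta and Ipo13, and Bcan most like Chmp6, Egln1 and Cdipt (r = 0.980 to 0.996). Ncan was most like Csmd1, Dpysl2 and Ptprz1 (r = 0.993 to 0.996), the last of which encodes another chondroitin sulfate proteoglycan.

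Among 28 other core proteins and related small leucine-rich proteins, 18 were above 1 CPM in all libraries. The highest per kb were Col18a1, a basement membrane collagen that carries heparan sulfate (220.5 ± 27.9 CPM per kb), the hyaluronan receptor Cd44 (111 ± 11.0) and the TGF-beta co-receptor Tgfbr3 (104 ± 28.1; SD, n = 6 each). By the edgeR slope on the fibroblast score, 7 of the 23 tested were called higher and 0 lower, against 4.56% higher and 1.07% lower over all genes tested. Dcn, the small leucine-rich relative of Bgn, measured 29.3, 93.0, 117, 252, 461 and 82.1 CPM in replicates 1 to 6, and its edgeR slope was 1.45 (adjusted p = 0.000678). It was lowest in replicate 1 and highest in replicate 5, as Bgn was. The other 6 called were Esm1, Epyc, Lum, Podn, Sdc2 and Sdc1, with slopes from 0.26 for Sdc1 to 1.60 for Esm1. Without replicate 5, only Dcn of this list was called, where edgeR called 0.146% of all genes. Among the fits that left out 1 library, Lum was called only without replicate 3 and Podn only without replicate 2 or 6. Sdc1 was called only without replicate 1, 2 or 6.

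The enzymes that build and edit the chains were also measured. All 6 linkage enzymes, which start both chain types, were above 1 CPM in every library, with B3gat3 (25.5 ± 2.11 CPM per kb), Fam20b (20.3 ± 0.952) and B4galt7 (6.20 ± 0.621) highest, and 0 of 6 were called by edgeR on the fibroblast score. Of 24 heparan sulfate enzymes, 15 were above 1 CPM throughout. The highest were the 6-O-endosulfatase Sulf2 (67.3 ± 11.2 CPM per kb), the N-sulfotransferase Ndst1 (52.2 ± 8.80) and Extl3 (42.7 ± 5.01; SD, n = 6). Of the 15 tested, edgeR called 2 higher with the fibroblast score, the epimerase Glce and the polymerase Ext1 (slopes 0.41 and 0.39), and 0 lower. Over all genes tested, edgeR called 4.56% higher and 1.07% lower, so neither count says much of these enzymes in particular.

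Of 16 chondroitin and dermatan sulfate enzymes, 14 were above 1 CPM throughout and Chst13 had at most 3 counts in every library. The polymerizing factors Chpf2 (16.4 ± 1.49 CPM per kb) and Chpf (15.6 ± 2.59) and the sulfotransferase Chst12 (13.9 ± 2.14) were highest. Of 15 tested, edgeR called 5 higher with the fibroblast score and 0 lower, against 4.56% higher and 1.07% lower over all genes tested. The 5 were the dermatan sulfate epimerase Dse (slope 1.07), the synthases Chsy3 (0.80) and Chsy1 (0.38), Csgalnact1 (0.69) and the sulfotransferase Chst11 (0.39). Dse measured 4.92, 10.0, 17.6, 19.6, 42.3 and 10.4 CPM in replicates 1 to 6, lowest in replicate 1 and highest in replicate 5. Without replicate 5, edgeR called 0 of these 15 and 0 of the 15 heparan sulfate enzymes, at adjusted p under 0.05. It called only 0.146% of all genes there, so this loss is not particular to the enzymes. Without replicate 3 or 4 the heparan sulfate enzymes also had 0 called, where edgeR called 4.69% and 2.81% of all genes. Among the fits that left out 1 library, Ext1 was called only without replicate 6 and Chst11 only without replicate 2.

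**Figure D4:**
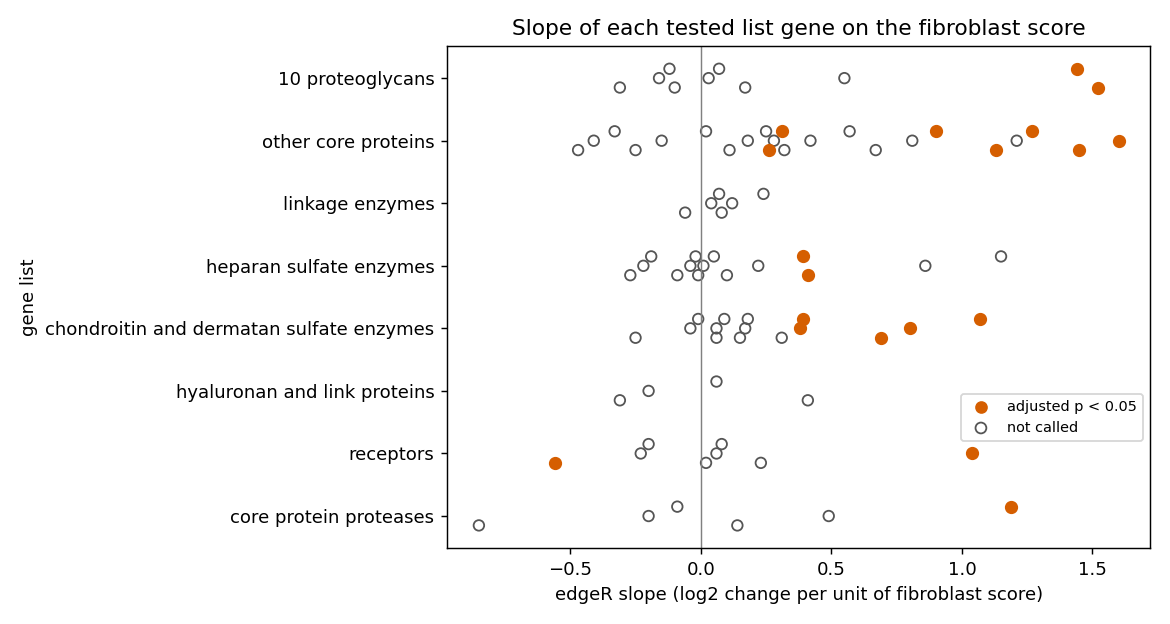
edgeR slope of each tested gene on the fibroblast score (log2 change per unit of score), 1 row per gene list, with filled points for genes called at an adjusted p under 0.05. In the row of 10 proteoglycans Vcan (1.52) and Bgn (1.44) are filled, and of the 19 filled points only Musk (-0.56), among the receptors, lies left of 0.

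The lecticans' partners in the matrix were uneven. The tenascin gene Tnc averaged 212 ± 50.1 CPM per kb (SD, n = 6), while the hyaluronan synthase Has2 reached 2.22 ± 0.985 and the link protein Hapln4 0.594 ± 0.125, and Hapln2 had at most 3 counts in every library. Among receptors, the dystroglycan gene Dag1, whose product binds perlecan and agrin, averaged 376 ± 47.7 CPM per kb. The receptor phosphatases Ptprf (52.0 ± 10.2) and Ptprs (24.2 ± 1.78) came next. Of 8 receptors edgeR called Ptprd higher (slope 1.04) and Musk, the kinase through which agrin acts at the muscle synapse, lower (slope -0.56). Of the 6 ADAMTS proteases known to cut lecticans, Adamts5 (52.8 ± 7.10 CPM per kb), Adamts1 (47.8 ± 10.3) and Adamts20 (8.70 ± 4.09) were highest, and edgeR called only Adamts15, higher with the score (slope 1.19). Over all genes tested, 4.56% were called higher and 1.07% lower, so single calls in lists this short say little of the receptors or proteases. Without replicate 5, edgeR called 0 of the 8 receptors and 0 of the 6 proteases, against 0.146% of all genes, and Musk was also not called without replicate 1, 3 or 4. Genes named for an edgeR slope were chosen after their values were seen.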

How the data were processed

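RNA was poly-A selected and made into stranded libraries, per the labels' protocols. The submitters' processing notes name bcl2fastq 2.20.0.422, cutadapt 2.5, STAR 2.7.2b, featureCounts 1.6.4 and the build GRCm38.p6. The authors deposited estimated counts per gene without scaling; 13.4% to 14.7% of values per library were not whole, and how reads matching several places were divided is not given in the sources used here. Combined exon lengths are as deposited, and every per-sample column was used. No gene overlapping a member had more than 5 counts in any library.

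CPM used deposited counts and library totals. Whole-number rounding preceded edgeR (4.0.16) and DESeq2 (1.42.0), both in R 4.3.3. Genes were filtered with filterByExpr and scaled by TMM (factors 0.976 to 1.02). The chi-square test, the exact permutation of Pearson's r with marker scores (log2(CPM + 0.5)) and the edgeR slopes ran on all genes kept, with Benjamini-Hochberg adjustment. The chi-square test and the exact permutation were also tried on simulated data, and the edgeR slopes were not. Pairs of members were compared by exact sign-flip permutation over 64 patterns.

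Members and gene lists were chosen with earlier results of these data known. Named genes were the members, the 3 highest per kb in each list, genes called by a permutation test (0), genes at or under 3 counts, and the 3 genes most like each member (not reported here for Sdc4). Alternatives were DESeq2 size factors, other pseudocounts, no filter, whole counts only, list medians, Spearman's rho, edgeR slopes and leaving out each replicate.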

Additional observations from a re-analysis of the deposited data

Results flagged for a closer look

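Of 19 measures (the CPM of each of the 10 genes, 7 marker scores and the summed heparan sulfate and chondroitin or dermatan sulfate members), 2 had a library far from the other 5, and chance alone gives this in about 5% of measures. These scores used plain CPM per kb, without TMM scaling. The gap to the nearest library, divided by the range of all 6, was compared with Dixon's critical value. The glial lineage score was 6.90 in replicate 5 and 7.40 in the next lowest library, a gap of 0.776 of the range. The endothelial score was 1.85 in replicate 5 and -0.222 in the next highest, a gap of 0.673. None of the 10 genes passed that limit. Vcan came nearest, at 0.589, with replicate 5 at 347 CPM and the next library at 153 CPM.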

How the results depend on the processing

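No paired analysis was possible because the 6 cultures form 1 group. Over results that answer a comparison, 158 values under an alternative were counted as unchanged and 31 lost the threshold. A further 5 counts of genes moved by more than 1.5 times. The 158 mix pair differences with mean CPM levels and counts of genes. Levels and counts have no threshold to pass, so 158 does not say how often a test held. The mean of Vcan was counted as unchanged at 74.2 CPM without replicate 5, against 119.6. With whole-count genes only, 5819 genes varied beyond counting noise (80.6% of the fewer genes tested). The edgeR slope called 843 genes for the fibroblast score where the exact permutation test called 0. Without division by length, Sdc3 minus Sdc4 was -0.05. Leaving out 1 library leaves 5, which cannot give a sign-flip p under 0.0625, so the 5 pairs that had passed lost the threshold; the log2 differences ran from 0.91 to 0.99 for Hspg2 minus Agrn, 4.60 to 4.99 for Gpc1 minus Gpc4, -1.37 to -1.16 for Sdc3 minus Sdc4, 2.34 to 3.01 for Vcan minus Bcan and 3.07 to 4.00 for Vcan minus Ncan. Bcan minus Ncan, which had not passed, ran from 0.73 to 1.04. The edgeR count for the fibroblast score ran from 22 (without replicate 5) to 818, was 423 without replicate 4, and for the glial lineage score from 0 to 2. Leaving out 1 library turned the direction of relations to the fibroblast score that had not passed: r ran from -0.52 to 0.60 for Bcan, -0.19 to 0.73 for Gpc1 and -0.81 to 0.61 for Sdc4, and edgeR slopes from -0.32 to 0.30, -0.06 to 0.17 and -0.30 to 0.18. The cause was not tested. Vcan was called by edgeR in all 6 fits that left out 1 library, and Gpc4 was called without replicate 6 (0.66, edgeR adjusted p = 0.0284). The edgeR fits without a library, and the macrophage, endothelial, mural and perineurial scores, were added after the data were seen. Bcan and Ncan, with 33 to 165 counts, are limited by depth.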
